A study of Mus musculus with 12 samples.

Results

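The 7 genes that encode the subunits of the NMDA receptor in the mouse, Grin1, Grin2a, Grin2b, Grin2c, Grin2d, Grin3a and Grin3b, were taken by gene symbol from a table of 33024 gene symbols, and all 7 were present with whole-number counts in every library. The table holds bulk RNA sequencing of cortex from 12 wild-type C57BL/6 mice, 7 controls given only water and 5 ethanol-administered mice. In the 2BC-DID protocol, mice aged 30 days at the start drank freely from a bottle of water or a bottle of ethanol at 20% (v/v) during 12 h of darkness a day. This went on for 35 days and was followed by 14 days of abstinence, behavioural testing and tissue harvest. All mice were perfused with saline before the cortex was taken, and each numbered library is treated here as 1 mouse. The comparison asks which transcripts differed in cortex after drinking had stopped.

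NMDA receptors are glutamate-gated cation channels that let calcium into neurons when glutamate release coincides with depolarization, and they are central to synaptic plasticity and memory. Each channel holds the obligatory GluN1 subunit, which binds the co-agonist glycine or D-serine, together with GluN2 subunits that bind glutamate or GluN3 subunits that also bind glycine. GluN2B predominates early in forebrain development and GluN2A joins it later. Ethanol inhibits NMDA receptors directly, and these receptors have long been studied in alcohol dependence.

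Total counts per library lay between 31768076 and 42183029, with 1 deeper library in each group (control mouse 5 and ethanol-administered mouse 1). At these depths, 3 counts correspond to at most 0.0962 CPM (library-size normalised counts, with edgeR's TMM factors), a floor that covers counting error only. Excitatory neuron markers of cortex were present in all mice, with a summed level of 2371 to 2887 CPM in the controls and 2331 to 2903 CPM in the ethanol-administered mice. Most of this sum is Slc17a7, the vesicular glutamate transporter VGLUT1 (1955 and 1906 CPM on average). Of the 8 markers, 1 was called higher (Fezf2, at 0.60 on the log2 scale, edgeR adjusted p = 0.0001) and 0 lower, against 4.20% and 4.09% of all genes tested. Past the adjusted p threshold at any size, 4 were higher and 1, Tbr1, lower (-0.40, edgeR adjusted p = 0.00222), against 12.1% and 11.6%. Markers of other brain regions did not match between the groups, which touches every comparison that follows. All 15 genes of a striatal spiny neuron list were lower in the ethanol-administered mice, with a summed level of 503 to 583 CPM against 1721 to 3601 CPM. All 10 genes of a hippocampal list were higher, with 198 to 285 CPM against 45.8 to 60.9 CPM. In bulk tissue, fewer cells of a type and less RNA per cell cannot be told apart.

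Per length of exon, Grin1 had the highest level of the family in both groups, and Grin3b was close to the detection floor. Levels were expressed as CPM per kilobase of merged exons. In the controls, the order was Grin1 (49.9 ± 2.84 CPM per kb, SD, n = 7), Grin2b (14.2 ± 1.43), Grin2a (10.3 ± 0.880), Grin2c (6.45 ± 0.265), Grin3a (3.03 ± 0.360), Grin2d (2.77 ± 0.124) and Grin3b (0.120 ± 0.0307). The ethanol-administered mice had the same order, with 46.4 ± 3.35 CPM per kb (SD, n = 5) for Grin1, 20.3 ± 0.933 for Grin2b, 13.2 ± 1.27 for Grin2a, 5.99 ± 0.490 for Grin2c, 4.40 ± 0.407 for Grin3a, 3.18 ± 0.329 for Grin2d and 0.0654 ± 0.0254 for Grin3b. Among the controls, neighbours in this order had ranges that did not overlap, except for Grin3a (2.41 to 3.45 CPM per kb) and Grin2d (2.53 to 2.94), which cannot be ranked against each other there. Among the ethanol-administered mice, ranges of all neighbours were apart. Dividing by the longest coding transcript instead gave the same order of means in the controls, where the ranges of Grin2b (12.5 to 17.1) and Grin2a (10.6 to 13.5) then overlapped. In the ethanol-administered mice it put the mean of Grin3a (7.43 CPM per kb, 6.50 to 8.25) above that of Grin2c (6.52, 6.05 to 7.36). Their ranges overlapped, so these genes cannot be ranked against each other with that length. The same length gave a higher level for Grin1 (126 CPM per kb in the controls), whose merged exons span 11089 bases and whose longest coding transcript spans 4381.

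As a share of the summed level per kb of all 7 genes, Grin1 took 57.5 ± 1.99% in the controls (SD, n = 7) and 49.6 ± 2.22% in the ethanol-administered mice (SD, n = 5). Grin2b took 16.4 ± 1.33% and 21.8 ± 1.11%, and Grin2a 11.8 ± 0.756% and 14.1 ± 1.70%. Within the 4 GluN2 genes alone, the share of Grin2b was 42.1 ± 1.50% and 47.7 ± 1.48%, that of Grin2a 30.4 ± 1.08% and 30.8 ± 2.66%, that of Grin2c 19.2 ± 1.32% and 14.05 ± 1.26%, and that of Grin2d 8.27 ± 0.785% and 7.45 ± 0.793%. A share also moves when other genes of the sum do. The level of Grin2c itself was 6.45 and 5.99 CPM per kb, a difference that did not pass the test, and the similar shares of Grin2a go with levels of 10.3 and 13.2 CPM per kb. With the longest coding transcript as the length, the share of all 7 genes was 74.4% and 67.8% for Grin1, 8.79% and 12.4% for Grin2b, and 7.29% and 9.22% for Grin2a. The shares are descriptions, without a test.

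**Figure D1:**
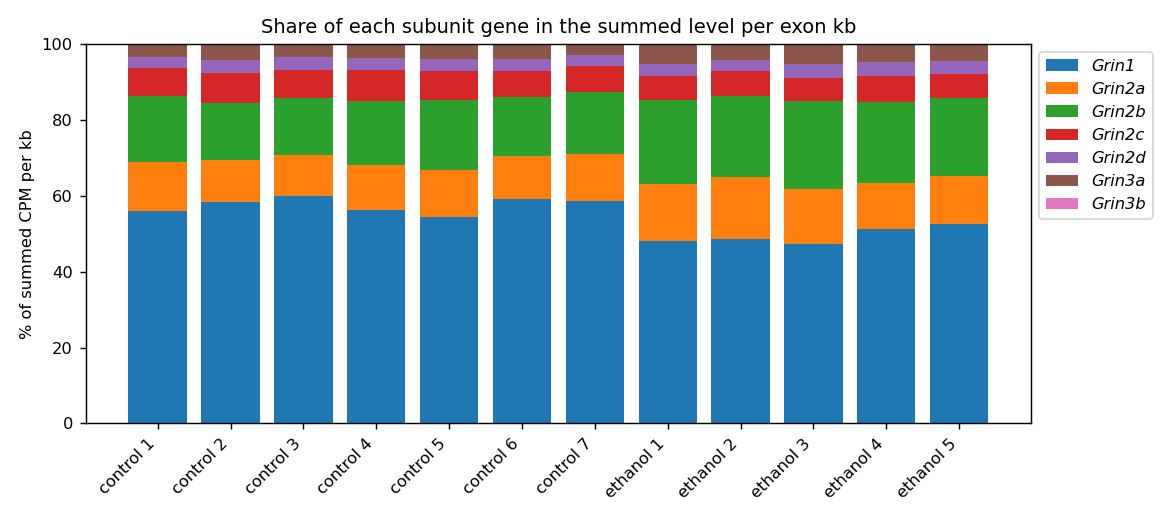
Share (%) of each of the 7 subunit genes in their summed CPM per kilobase of merged exon, 1 bar per mouse. Grin1 took the largest part in all 12 mice, 57.5% on average in the controls and 49.6% in the ethanol-administered mice, and Grin2b the next, 16.4% and 21.8%.

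Grin1, the gene of the obligatory subunit GluN1, was not detectably different between the groups. It lies on the minus strand of chromosome 2 (GRCm39, 25181186 to 25209226). The controls ranged from 514 to 600 CPM with a median of 538, and the ethanol-administered mice had 479, 495, 490, 552 and 557 CPM. The groups overlapped, with 3 of the 5 ethanol-administered mice below every control mouse. The log2 fold change was -0.11 (standard error 0.06, 95% interval -0.22 to 0.01, adjusted p = 0.184, edgeR quasi-likelihood test over all genes). Exons of the antisense transcript Grin1os cover 11.8% of Grin1's merged exons on the opposite strand, and the strand setting of the counting is not given in the sources used here. Grin1os itself had 10.2 ± 0.908 CPM in the controls (SD, n = 7) against 11.5 ± 0.696 CPM (SD, n = 5), and did not pass the test (edgeR adjusted p = 0.118).

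Of the GluN2 genes, Grin2b showed the largest difference and was called higher in the ethanol-administered mice (past 0.05 in adjusted p and past 0.5 in the size of its log2 difference, both of which a call required). It encodes GluN2B, the glutamate-binding subunit with slow deactivation that binds CaMKII, and spans chromosome 6 from 135690231 to 136150548 on the minus strand. The controls ranged from 303 to 415 CPM with a median of 368. The ethanol-administered mice had 509, 501, 555, 528 and 497 CPM, all above the highest control mouse. The fold change was 1.43 (log2 fold change 0.52, standard error 0.07, 95% interval 0.38 to 0.66, edgeR adjusted p = 2.24e-05).

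Grin2a encodes GluN2A, the faster subunit of mature cortical synapses, and lies on chromosome 16 from 9385762 to 9813424 on the minus strand. The controls ranged from 158 to 200 CPM with a median of 185, and the ethanol-administered mice had 239, 270, 240, 214 and 217 CPM. Again every ethanol-administered mouse was above every control mouse. The log2 fold change of 0.36 (standard error 0.07, 95% interval 0.21 to 0.51, edgeR adjusted p = 0.0012) passed the p threshold but stayed under the minimum size, so Grin2a was not called.

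Grin2c and Grin2d are the less abundant GluN2 genes of the forebrain. GluN2C is best known from cerebellar granule cells and is also found in astrocytes and thalamus, while GluN2D is prominent in interneurons. Grin2c (chromosome 11, 115139992 to 115158525, minus strand) had 68.6 to 77.2 CPM in the controls (median 70.6) and 61.9, 65.8, 62.4, 75.3 and 68.3 CPM in the ethanol-administered mice. For this gene, 4 of 5 ethanol-administered mice were below every control mouse and mouse 4 lay within the control range. The log2 fold change was -0.11 (standard error 0.06, 95% interval -0.22 to 0.01, edgeR adjusted p = 0.177). Grin2d (chromosome 7, 45481304 to 45527802, minus strand) had 19.8 to 23.1 CPM in the controls (median 21.8) and 23.2, 21.5, 26.4, 27.9 and 26.0 CPM in the ethanol-administered mice, of which 4 were above every control mouse. Its log2 fold change was 0.20, under the minimum size, with a standard error of 0.07 and an adjusted p of 0.0428 (edgeR). Its adjusted p stayed under 0.05 in 3 of the 12 fits that each left out 1 mouse. With all mice, the adjusted p of Grin2d was 0.0302 in DESeq2 but 0.0525 in limma voom. In edgeR it was 0.0627 when genes needed only 1 count in any mouse, and 0.0739 with the replicate number as a block.

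Between the GluN3 genes, Grin3a was called higher and Grin3b was near the limit of detection. GluN3A subunits lower the calcium permeability of the channel and are most abundant in juvenile brain. Grin3a (chromosome 4, 49661611 to 49845847, minus strand) had 31.6 to 45.3 CPM in the controls, with a median of 40.1, and 60.3, 50.6, 64.3, 59.7 and 54.5 CPM in the ethanol-administered mice. All 5 were above the highest control mouse. The fold change was 1.45 (log2 fold change 0.54, standard error 0.08, 95% interval 0.37 to 0.71, edgeR adjusted p = 0.000146).

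Grin3b (chromosome 10, 79806549 to 79813024, plus strand) encodes GluN3B, a subunit known mainly from motor neurons. It had 9 to 18 counts per control library and 6, 6, 12, 6 and 7 counts in the ethanol-administered mice, or 0.284 to 0.542 CPM (median 0.368) against 0.139, 0.187, 0.358, 0.182 and 0.213 CPM. Mouse 3 of the ethanol-administered group lay within the control range and the other 4 below it. The log2 fold change was -0.88 (standard error 0.32, 95% interval -1.56 to -0.20, edgeR adjusted p = 0.0567) and did not pass, but without mouse 3 of the ethanol-administered group it was called lower (-1.14, adjusted p = 0.029). Grin3b entered the test mainly through the controls, of which 5 reached the filter's cutoff of 0.310 CPM, against only mouse 3 of the ethanol-administered group. Without that mouse it entered through the controls alone, the group where it was high, so that call cannot be read as a result. Exons of Tmem259 on the opposite strand cover 32.1% of its own.

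**Figure D2:**
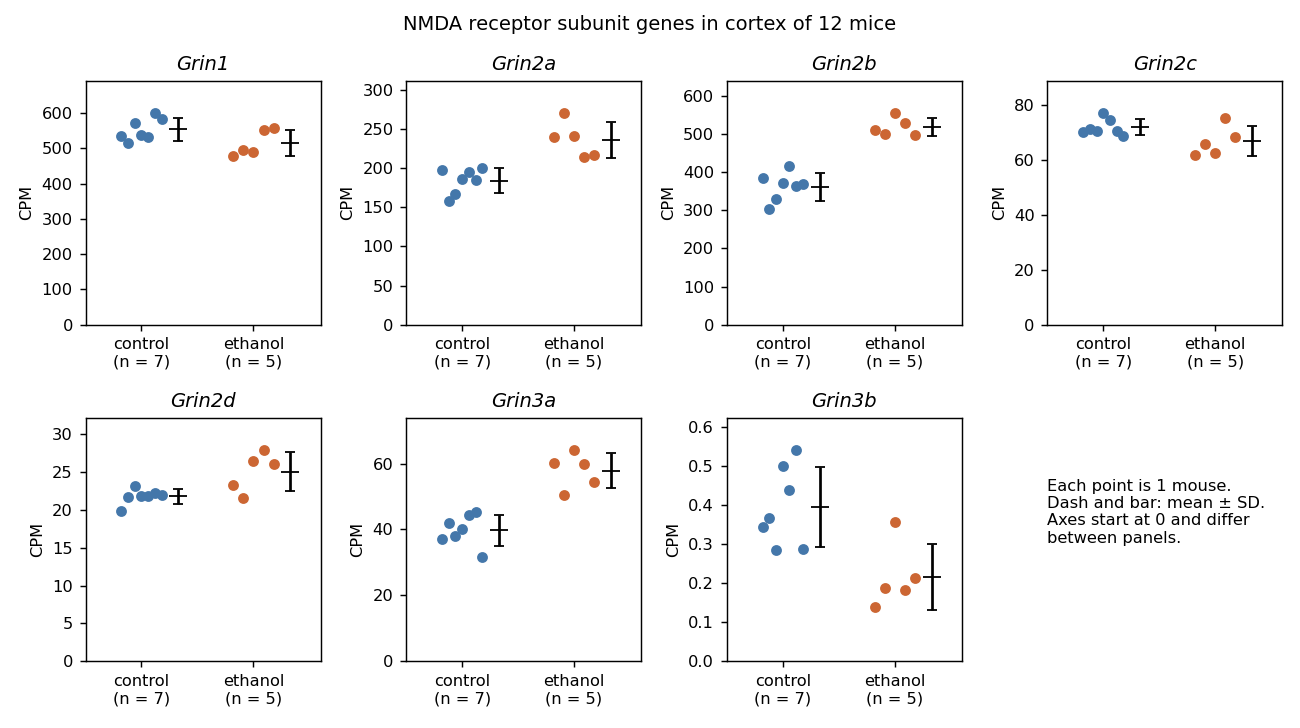
CPM of each NMDA receptor subunit gene in each of 12 mice, with the mean and SD of each group beside the points; the axes start at 0 and differ between panels. For Grin2a, Grin2b and Grin3a all 5 ethanol-administered mice sit above all 7 controls, whereas for Grin1, Grin2c, Grin2d and Grin3b the groups overlap.

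In all, 2 of the 7 subunit genes were called higher (Grin2b and Grin3a) and none of them lower, or 0 (edgeR). Over the 16059 genes tested, 8.29% were called, 4.20% higher and 4.09% lower. Without the minimum size, 4 of the 7 were past the p threshold in the higher direction and 0 in the lower, against 12.1% and 11.6% of genes tested (23.7% in either direction). At an unadjusted p under 0.05 the counts were 4 higher and 1 lower (Grin3b), against 2994 and 2872 of the 16059 genes tested (edgeR). With the minimum size, DESeq2 and limma voom also called 2 higher and 0 lower. Every ethanol-administered mouse was above every control mouse for 3 of the 7 subunit genes, and for 4.84% of genes tested, and the reverse held for 0 of the 7 and for 4.96%. The median log2 fold change was 0.20 over the 7 genes and 0.00 over all genes tested. Both calls lie close to the minimum size of 0.5. The log2 fold change of Grin2b was 0.479 without control mouse 2, 0.497 without control mouse 3 and 0.491 without ethanol-administered mouse 3, and that of Grin3a was 0.490 without control mouse 7 and 0.498 without ethanol-administered mouse 3, each of which ends the call by size alone. The adjusted p of Grin2a, Grin2b and Grin3a stayed under 0.05 in all 12 of these fits, with largest values of 0.00367, 0.000121 and 0.000776 (edgeR).

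**Figure D3:**
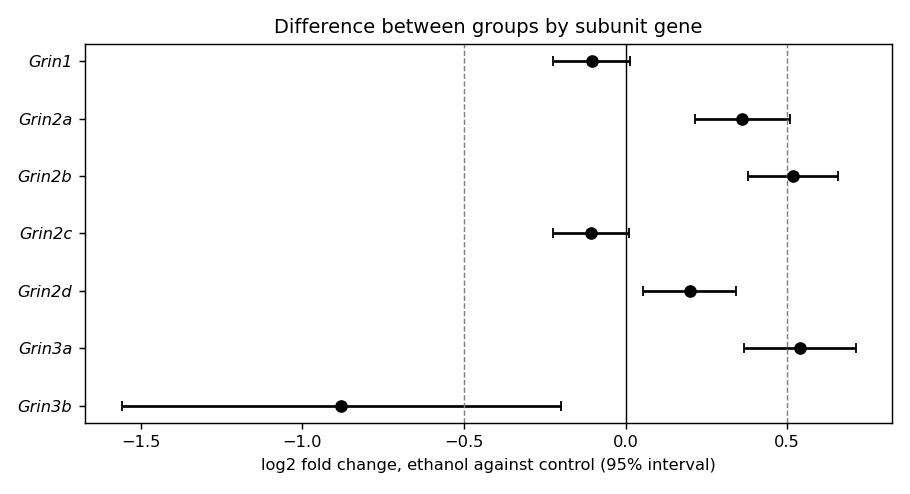
Log2 fold change of each subunit gene, ethanol-administered against control mice, with its 95% interval from the edgeR fit; dashed lines mark the minimum size of 0.5 in each direction. Grin2b (0.52) and Grin3a (0.54) lie just past the line and Grin2a (0.36) short of it, and the interval of Grin3b is the widest.

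Subunit genes were also compared with one another inside each library, as ratios of read counts, which do not depend on the scaling between libraries. These ratios are not corrected for gene length and serve only to compare mice. The ratio of Grin2b to Grin1 ranged from 0.576 to 0.781 in the controls and was 1.06, 1.01, 1.13, 0.956 and 0.892 in the ethanol-administered mice, so the groups did not overlap. On the log2 scale the difference was 0.63 (exact permutation test over 792 splits of the mice, two-sided, p = 0.00126, the smallest that these group sizes allow, and 0.00221 adjusted over 7 ratios). For Grin2a to Grin1 the controls ranged from 0.292 to 0.368 and the ethanol-administered mice from 0.387 to 0.546, a log2 difference of 0.47. For Grin3a to Grin1 the ranges were 0.0543 to 0.0837 and 0.0978 to 0.131, with a log2 difference of 0.65. For Grin2d to Grin1 they were 0.0370 to 0.0421 and 0.0434 to 0.0539, with a log2 difference of 0.30. All 3 had the same exact permutation p of 0.00126 (adjusted 0.00221), with every ethanol-administered mouse above every control mouse. These ratios share Grin1 as the denominator, so they are not independent of each other.

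In contrast, no difference was detected in the ratio of Grin2c to Grin1, with 0.130 ± 0.0109 in the controls (SD, n = 7) and 0.130 ± 0.0053 in the ethanol-administered mice (SD, n = 5). Its log2 difference was -0.0029 (exact permutation test, two-sided, p = 0.960). Grin3b to Grin1 was lower by 0.76 on the log2 scale (difference -0.76, exact permutation p = 0.0152, adjusted 0.0212), on the few counts given above, with 4 of 5 ethanol-administered mice below every control mouse. The ratio of Grin2b to Grin2a, which compares the GluN2 subunits of the developmental switch, was 1.97 ± 0.0892 in the controls (SD, n = 7) and 2.21 ± 0.234 in the ethanol-administered mice (SD, n = 5). The log2 difference was 0.16 (exact permutation p = 0.0316, adjusted 0.0368). The groups overlapped, with 3 of 5 ethanol-administered mice above every control mouse and mouse 2, at 1.85, near the lowest control mouse. With 1 mouse left out, the adjusted p of this ratio was over 0.05 in 9 of 12 cases, among them each ethanol-administered mouse with a value above every control mouse, and without mouse 2 of that group the difference was 0.22.

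**Figure D4:**
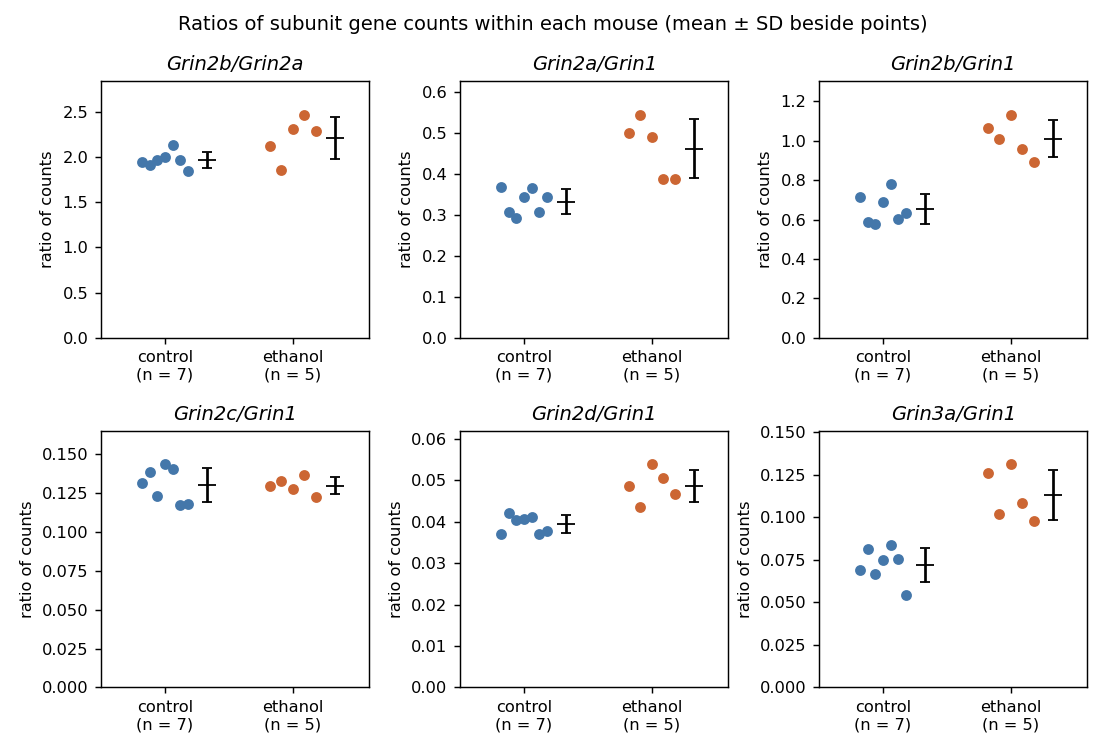
Ratios of read counts between pairs of subunit genes in each mouse, with the mean and SD of each group beside the points; the axes start at 0 and differ between panels. Grin2a, Grin2b, Grin2d and Grin3a relative to Grin1 are higher in every ethanol-administered mouse than in any control mouse, while Grin2c relative to Grin1 overlaps fully (0.130 in both groups).

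The regional marker lists separated the groups by more than any subunit gene did, with median log2 fold changes of -2.84 for the striatal and 2.71 for the hippocampal list. Neither list's summed level overlapped between the groups, so regional content and ethanol exposure cannot be told apart across all 12 mice. The scores of both lists together explained 98.0% of the variance in which group a mouse belonged to. With the striatal score as a covariate, the log2 fold change of Grin2b was 0.19 with a standard error of 0.33 (edgeR adjusted p = 0.975) and that of Grin3a 1.52 with a standard error of 0.35 (adjusted p = 0.164). With the hippocampal score they were 0.48 (standard error 0.34, adjusted p = 0.731) and 0.44 (standard error 0.43, adjusted p = 0.821). For Grin2a the sign turned, to -0.11 and -0.28 (adjusted p = 0.986 and 0.856). In these fits 11 genes and 1 gene were called out of 16059. A choroid plexus list also differed and varied between mice. Its summed level was 5.45 to 16.0 CPM in the controls and 116, 18.2, 969, 265 and 10.5 CPM in the ethanol-administered mice, of which mouse 3 also had the highest Grin2b and Grin3a values. The Grin2b values of all 5 ethanol-administered mice had the same order as this sum, and those of Grin3a did not. In the controls the order of Grin2b differed from it, as control mouse 3 had the highest sum and 329 CPM of Grin2b. Without ethanol-administered mouse 3 the log2 fold changes of Grin2b and Grin3a were 0.491 and 0.498, under the minimum size, and 0 of the 7 subunit genes were called higher. The part of choroid plexus content in these differences was not tested. Within groups, after subtracting each group's mean, Pearson's correlation over 12 mice with the striatal score was 0.69 for Grin3a and between -0.44 and 0.28 for the other 6 subunit genes. With the hippocampal score it was -0.71 for Grin2d, -0.49 for Grin2c, -0.47 for Grin1 (the denominator of the ratios), 0.54 for Grin2a, 0.02 for Grin2b, 0.06 for Grin3a and 0.09 for Grin3b. Both measures of a mouse come from the same library, so these values are a description.

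**Figure D5:**
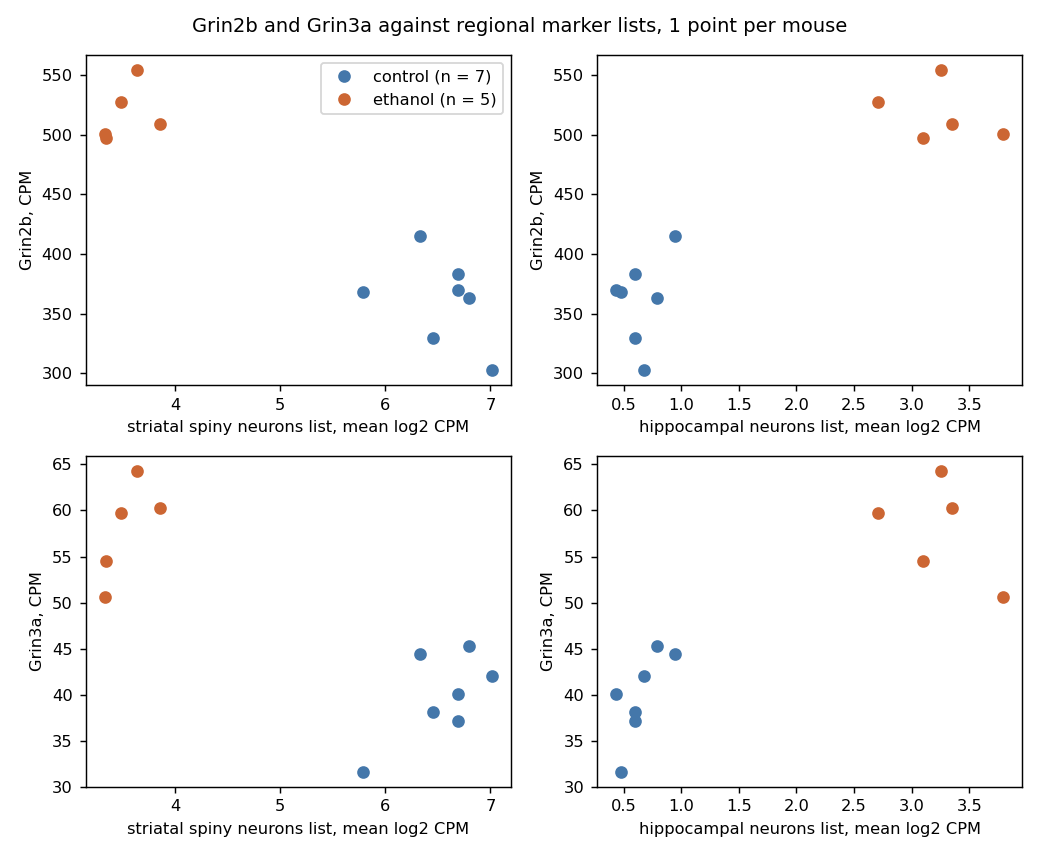
CPM of Grin2b (top) and Grin3a (bottom) against the mean log2 CPM of a striatal list (left) and a hippocampal list (right), 1 point per mouse. The 7 controls and 5 ethanol-administered mice form separate clusters on both axes in all 4 panels, so no relation across all mice is given.

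Genes whose level varied most like that of each subunit gene were sought within groups, as Pearson's correlation over 12 mice of log2 CPM after subtracting each group's mean, among 10050 other genes of at least 10 CPM. For Grin2b these were Gxylt1 (r = 0.93), Tnr (r = 0.92) and Clmn (r = 0.92). For Grin3a they were Nrp2 (r = 0.94), Galnt10 (r = 0.90) and Usp11 (r = 0.90), and for Grin2a Zfp729a, Pds5a and Zeb2 (r = 0.92, 0.92 and 0.91). For Grin2d they were Sema6b (r = 0.91), Mark4 (r = 0.90) and Rac3 (r = 0.90). No gene appeared in more than 1 of the 4 sets. The largest of 10050 correlations over 12 mice is high by selection, and the mice share library depth and regional content, so these values are a description only.

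Of 13 listed genes that make, transport or degrade the glycine-site co-agonists, 11 were tested, 0 were called higher and 1 lower (edgeR), where 4.20% and 4.09% of all genes tested were called. Past the adjusted p threshold at any size, 2 were higher and 3 lower, where the shares over all genes were 12.1% and 11.6%. The list's median log2 fold change was -0.05. The gene called lower was Slc1a5, a neutral amino acid exchanger, with a mean of 4.11 CPM in the controls (SD 0.687, n = 7) and of 2.88 CPM after ethanol (SD 0.637, n = 5; log2 fold change -0.51, edgeR adjusted p = 0.0251). Its call was lost without control mouse 3 or 5 or ethanol-administered mouse 2 or 4, where the log2 fold change lay between -0.49 and -0.42. The counts at an unadjusted p under 0.05 were also 2 higher and 3 lower, against 2994 and 2872 of the 16059 genes tested (edgeR). The others past the p threshold stayed under the minimum size. Psat1 and Psph, enzymes of serine synthesis, were lower in all 5 ethanol-administered mice than in any control mouse, at -0.35 and -0.31 on the log2 scale (edgeR adjusted p = 0.000111 and 0.016). Gldc, of the glycine cleavage system, was at 0.30 (adjusted p = 0.00376) and Srr, the serine racemase that makes D-serine, at 0.23 (adjusted p = 0.0131). Slc6a9, the glial glycine transporter GlyT1, was at -0.05 (adjusted p = 0.734). Dao, which degrades D-serine, did not pass the filter.

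Among 20 scaffold and membrane partners of the receptor, all tested, 3 were called higher and 1 lower (4.20% and 4.09% over all genes tested), with a median log2 fold change of 0.10. At any size, 7 were higher and 4 lower past the adjusted p threshold, against 12.1% and 11.6% of all genes tested (edgeR). Homer3, whose protein links postsynaptic receptors to scaffolds, had a mean of 4.11 CPM (SD 0.527) in the 7 controls and 9.46 CPM (SD 2.20) in the 5 ethanol-administered mice, and rose by 1.20 on the log2 scale (standard error 0.14, edgeR adjusted p = 1.19e-05). Ephb2, a receptor tyrosine kinase that binds and clusters NMDA receptors, rose from 18.6 ± 3.24 to 28.7 ± 2.95 CPM (log2 fold change 0.63, edgeR adjusted p = 0.000426). Homer2 rose by 0.52 on the log2 scale (edgeR adjusted p = 0.00109), a call that was lost by size without control mouse 1, 2 or 3 or ethanol-administered mouse 3 (0.47 to 0.50). Actn2, an actin-binding protein that docks GluN1 and GluN2B to the cytoskeleton, fell from 29.7 ± 4.41 to 11.6 ± 1.82 CPM (log2 fold change -1.35, standard error 0.12, edgeR adjusted p = 2.92e-07). Dlg4, which encodes the core scaffold PSD-95, was not called, at -0.18 on the log2 scale (edgeR adjusted p = 0.0326). In the fits with the striatal score, the differences of Ephb2 and Actn2 changed sign (-0.89 and 0.035).

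The trafficking list, with 11 genes tested, held 1 gene called lower and 0 called higher (edgeR), where 4.09% of all genes tested were called lower and 4.20% higher, and its median log2 fold change was -0.01. At an unadjusted p under 0.05, 3 were higher and 2 lower, against 2994 and 2872 of the 16059 genes tested (edgeR). The gene called lower was Kif17, the kinesin motor that carries GluN2B-containing vesicles along dendrites. Its mean was 45.7 CPM (SD 3.95) in the 7 controls and 26.9 CPM (SD 2.47) in the 5 ethanol-administered mice, so that Kif17 fell by 0.77 on the log2 scale (standard error 0.07, edgeR adjusted p = 1.09e-06), in the direction opposite to Grin2b. Of its partners in the same transport complex, Apba1 was at 0.27 on the log2 scale (edgeR adjusted p = 0.002), and Cask and the Lin7 genes did not pass.

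Of 33 genes that signal downstream of the receptor or modify it, 3 were called higher and 1 lower, against 4.20% and 4.09% of all genes tested, and the median log2 fold change was -0.02. At any size, 9 were higher and 6 lower past the adjusted p threshold, against 12.1% and 11.6% of all genes tested (edgeR). Nos1, the neuronal nitric oxide synthase tethered to the receptor by PSD-95, rose by 0.93 on the log2 scale (standard error 0.12, edgeR adjusted p = 1.67e-05), between means of 58.8 CPM (SD 5.82, n = 7) and 112 CPM (SD 26.4, n = 5). Tiam1, a Rac1 exchange factor that associates with the receptor, and Camk2d, a CaMKII isoform, rose by 0.57 and 0.56 on the log2 scale (edgeR adjusted p = 0.000672 and 0.00144). Without ethanol-administered mouse 3 the value of Camk2d was 0.48, which ends its call by size. Ptpn5, which encodes the striatum-enriched phosphatase STEP that dephosphorylates GluN2B, fell from 367 ± 53.2 to 226 ± 10.8 CPM (log2 fold change -0.70, standard error 0.09, edgeR adjusted p = 1.93e-05). With the striatal score as a covariate its difference was 0.43 (adjusted p = 0.901), opposite in sign. Fyn, the kinase that phosphorylates GluN2B, was at 0.11 on the log2 scale (edgeR adjusted p = 0.114), and Camk2a at 0.16 (adjusted p = 0.0617).

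The AMPA, kainate and delta receptor genes, the closest relatives of the NMDA receptor genes, gave 0 calls in either direction among 11 tested (edgeR, DESeq2 and limma voom), where 8.29% of all genes tested were called by edgeR, with a median log2 fold change of 0.04. Past the adjusted p threshold alone, 2 were higher, against 12.1% of all genes tested. At an unadjusted p under 0.05, 4 were higher, against 2994 of the 16059 genes tested (edgeR). Gria1, the AMPA receptor subunit GluA1, had 430 CPM in the controls and 585 CPM in the ethanol-administered mice, higher by 0.44 on the log2 scale (edgeR adjusted p = 2.69e-05), and Grik1 was higher by 0.44 (adjusted p = 0.00065). Whether the NMDA receptor genes differed from this family was not tested.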

How the data were processed

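Cortex RNA of 12 mice was sequenced by BGI. According to the methods and the submitters' processing notes, the authors checked reads with FastQC 0.11.9, aligned them with STAR to GRCm39 with Gencode Release 28, and counted them with featureCounts. They deposited expected counts per gene symbol without normalization, of which 61 symbols hold fractions; counts were rounded. Of the columns, 0 were left without a sample. Genes passing edgeR's filterByExpr (16059) were compared with TMM factors and edgeR's quasi-likelihood test (R 4.3.3, edgeR 4.0.16), with Benjamini-Hochberg adjustment over all of them. A call required both an adjusted p below 0.05 and a log2 difference of more than 0.5 in either direction, as in the study. Ratios used a pseudocount of 0.5. Gene positions and exon lengths are from Gencode release M39. Nothing beyond the numbers in the labels says how replicates were taken, so p-values measure the spread between these samples. No pair of libraries of a group differed by as little as sampling noise (chi-square over degrees of freedom at least 7.76).

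The members and gene lists were chosen with earlier results of these data known. Named are the 7 subunit genes, called genes of each pathway list (at most 5 per direction), and the 3 genes most like each subunit gene past the p threshold; uncalled list genes were named for their role after their values had been seen. Alternatives were DESeq2 1.42.0, limma voom (limma 3.58.1), other scaling factors, filters and fold minimums, a replicate block, marker scores as covariates, other pseudocounts and lengths, and each mouse left out. The fits were tested on simulated data. The result for 1 gene of the list of other ionotropic receptors is not reported here.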

Additional observations from a re-analysis of the deposited data

Results flagged for a closer look

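Control mouse 1 had the lowest Grin2d value of its group, 4.32 log2 CPM where the next control mouse had 4.44, a gap that is large against the range of the 7 controls. It was the only such value in 48 comparisons of a gene or ratio within a group, where chance gives about 2.4. Without this mouse the log2 fold change of Grin2d was 0.18 (edgeR adjusted p = 0.0858).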

How the results depend on the processing

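The sign of Grin2b, Grin3a and Grin2d was the same under every alternative run, and under DESeq2, limma voom, other scaling factors and other filters on low counts the log2 fold change of Grin2b stayed between 0.51 and 0.52. With marker scores as covariates, few genes were called at all (11, 1 and 4). The number of subunit genes called higher was then 0. With the striatal score, the log2 fold changes were -0.11 for Grin2a, 0.19 for Grin2b, 1.52 for Grin3a, 0.22 for Grin3b, -0.89 for Ephb2, 0.035 for Actn2 and 0.43 for Ptpn5. With the hippocampal score they were 0.28 for Grin1, -0.28 for Grin2a, 0.48 for Grin2b, 0.27 for Grin2c, 0.44 for Grin3a and -0.11 for Tiam1. With both scores they were -0.82 for Grin2a, 0.13 for Grin2b, 0.24 for Grin2c, 1.47 for Grin3a, -1.23 for Ephb2, 0.41 for Actn2 and 0.90 for Ptpn5. The scores nearly coincide with the groups, so the standard errors grow several-fold (0.07 to 0.48 for Grin2b with both). Without a minimum fold, Grin2a (0.36) and Grin2d (0.20) were called too, 4 subunit genes and 3810 genes in all, and with a minimum log2 fold of 1, Grin2b (0.52) and Grin3a (0.54) were not, 0 subunit genes and 524 genes in all.

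With 1 mouse left out, log2 fold changes ranged from 0.48 to 0.55 for Grin2b, from 0.49 to 0.58 for Grin3a and from -1.14 to -0.74 for Grin3b, with 0 to 2 subunit genes called higher and 0 to 1 lower. The Grin2b to Grin2a ratio difference ranged from 0.12 to 0.22 and that of Grin2c to Grin1 from -0.027 to 0.021.

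Control and ethanol-administered mice share the numbers 1 to 5, but nothing says that a number marks a shared litter or day, and deviations of same-numbered mice correlated between -0.108 and 0.0182, with 0 of 5 ethanol-administered mice closest to their own number. With the replicate block, Grin2b was at 0.53 (edgeR adjusted p = 0.000695). Over 5 such pairs, sign flips cannot give a p under 0.0625, and the log2 ratio differences were 0.14 for Grin2b to Grin2a, 0.45 for Grin2a, 0.60 for Grin2b, 0.27 for Grin2d, 0.59 for Grin3a and -0.78 for Grin3b, each to Grin1. Grin3b, at 6 to 18 counts, is limited by depth.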

Other observations

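Marker lists of further cell types gave the following values, where 4.20% of all genes tested were called higher, 4.09% lower and 23.7% were past an adjusted p of 0.05 at any size (edgeR). Of 7 astrocyte markers, 1 was called higher and 0 lower, with a summed level of 2785 to 3313 CPM in the controls and 3182 to 3702 CPM in the ethanol-administered mice. Past an adjusted p of 0.05 at any size, 3 of them were higher and 0 lower (edgeR). Of 8 interneuron markers, 1 was called higher and 1 lower, with 744 to 962 CPM and 708 to 779 CPM, and 2 were higher and 2 lower past the adjusted p at any size. Of 6 oligodendrocyte markers, 0 were called higher and 2 lower and all 6 were lower past an adjusted p of 0.05 (edgeR), with 4285 to 5703 CPM and 2872 to 5139 CPM. The lists for oligodendrocyte precursors, microglia and endothelial cells held 0 called genes (edgeR) of 4, 6 and 4 tested. Of these, 2, 3 and 0 were past an adjusted p of 0.05 at any size and 3, 4 and 0 past an unadjusted p of 0.05. At that unadjusted cut, 2994 of the 16059 genes tested were higher and 2872 lower. The 3 microglial markers past the adjusted threshold were lower, and that list's summed level did not overlap between the groups, with 251 to 275 CPM in the controls and 224 to 247 CPM in the ethanol-administered mice. The 2 precursor markers were higher, with 161 to 183 CPM and 175 to 189 CPM, and endothelial markers summed to 122 to 137 CPM and 121 to 138 CPM. Of 5 thalamic markers tested, 1 was called higher, Slc17a6, with 14.6 CPM on average in the controls and 30.9 CPM in the ethanol-administered mice. The list's summed level was 46.9 to 53.2 CPM against 58.9 to 84.4 CPM, and most of that rise is Slc17a6. Plekhg1 was at 0.43 on the log2 scale (edgeR adjusted p = 0.007), whereas Lef1 (0.26), Tcf7l2 (-0.14) and Prkcd (-0.21) did not pass. Of the cerebellar granule cell markers, 3 of 6 did not pass the filter, among them Gabra6 (0.061 and 0.073 CPM on average). Of the 3 tested, 1 was called lower, Zic1, with 23.4 CPM on average in the controls and 10.8 CPM in the ethanol-administered mice. Summed levels were 28.7 to 45.4 CPM and 17.0 to 24.7 CPM and did not overlap, but most of each sum is Zic1 and Pax6. Pax6 was at -0.33 on the log2 scale (edgeR adjusted p = 0.0192) and Cbln3 at 0.22 (adjusted p = 0.688). Of the choroid plexus markers, all 3 tested were called higher.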
